A study of Homo sapiens with 8 samples.

Results

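The p53 pathway target genes described here are 41 genes that p53 is known to switch on, taken as a list of symbols by their known function, with earlier results of these libraries known. They were matched by Ensembl identifier and GENCODE symbol on GRCh38 to the 60624 gene identifiers counted, of which 18661 had enough counts to be tested. All 41 were tested, with 123 counts or more in every library for the least abundant (ACER2) and up to 16916 for CCNG1. RNA was sequenced from A549, an established human lung adenocarcinoma cell line with wild-type p53, in 4 groups of 2 libraries, untreated (UT), indisulam (IN), SPHINX31 (SP) and both compounds (COMBO). Indisulam makes the splicing factor RBM39 a target of a ubiquitin ligase, and SPHINX31 inhibits SRPK1, a kinase that phosphorylates splicing factors. The methods state an exposure of 24 h, with indisulam at 0.5 μM and SPHINX31 at 5 μM, whereas the deposited labels give 2 μM indisulam and 18 h for every library. The libraries of a group are technical duplicates, so that p-values measure the spread between libraries and not between independent treatments.

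p53 is a transcription factor that is held at a low level by MDM2, a ubiquitin ligase whose gene is itself a p53 target, and by the related protein MDM4. When stress releases this hold, p53 binds a pair of adjacent half-sites in DNA and raises genes that stop the cell cycle (CDKN1A, which encodes p21), start apoptosis (BBC3, PMAIP1, death receptors), repair DNA (XPC, DDB2) or signal to other cells (GDF15). Several of these genes, among them GDF15, PMAIP1, TNFRSF10B and GADD45A, are also known to respond to the stress factors ATF4 and DDIT3, so that a rise in 1 of them does not by itself name p53.

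Total counts on genes were between 51727369 and 63186989 per library, 83.0% to 86.0% of the recorded reads. The A549 label was checked against 7 epithelial and A549 markers, which summed to between 16143.7 and 18812.6 CPM (counts on a gene relative to the library's total, scaled to 1e+06), and 9 markers of other cell types, which summed to between 12.7 and 16.2 CPM in all groups. Of these 9, CD3E, SFTPB and EPB42, markers of T cells, alveolar cells and red cells, had no count in any library. However, 4 of the 9 had enough counts to be tested, and PECAM1 among them was called lower in the combination than with SPHINX31. CDKN2A, whose locus is known to be deleted in A549, was between 2.65 and 3.64 CPM. This is above the untreated means of the members ACER2 (2.41 CPM) and SPATA18 (2.60 CPM). CDKN2A therefore did not bear out the label, and the source of its counts was not tested. RBM39 mRNA rose with indisulam (log2 fold change 1.22, SE 0.0553, adjusted p = 5.41e-09) and SRPK1 mRNA fell by 0.33 on the log2 scale (adjusted p = 0.000342), both in edgeR's quasi-likelihood test.

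The DNA near the start of each member was searched for the p53 full site. The counts did not enter the search, but its rule was relaxed after a stricter one matched few members. The members were also listed as known p53 targets, so that the shares below are a description only. A match was 2 adjacent half-sites of 10 bases with the C and the G of each core in place and at most 2 mismatches to the consensus at the other 16 positions, within 2500 bases of the GENCODE start of the canonical transcript. The consensus reads the same on both strands. Of the 41 members, 17 held a match (41.5%), compared with 529 of 14010 tested protein-coding genes (3.78%). With at most 1 mismatch the numbers were 6 members (14.6%) and 0.528% of genes, and with none they were PLK2 and ZMAT3 (4.88%) and 0.0785% of genes. The core of each half-site is in capitals, the sequences are from GRCh38 and read along the strand of the gene, and those shown belong to members whose levels are described in full.
CDKN1A: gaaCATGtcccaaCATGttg
MDM2: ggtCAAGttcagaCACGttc
CCNG1: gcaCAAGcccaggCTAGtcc
EDA2R: gaaCATGcctggaCGTGtcc
GADD45A: gaaCATGtctaagCATGctg
GDF15: catCTTGcccagaCTTGtct
PLK2: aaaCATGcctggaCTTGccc
ZMAT3: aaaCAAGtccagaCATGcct
BTG2: acgCATGttcaggCATGcat
AEN: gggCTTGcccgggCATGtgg
PMAIP1: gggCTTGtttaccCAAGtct
DDB2: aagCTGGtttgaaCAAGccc

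The CDKN1A match lies 2255 bases upstream of the canonical start (chr6:36676449-36676468, plus strand), and the PLK2 match 2197 bases upstream (chr5:58462274-58462293, minus strand). GDF15 has its match 840 bases upstream (chr19:18385308-18385327, plus strand), BTG2 1867 bases upstream (chr1:203303642-203303661, plus strand), PMAIP1 437 bases upstream (chr18:59899549-59899568, plus strand) and AEN 24 bases upstream (chr15:88621306-88621325, plus strand). The MDM2 match is 756 bases into the gene, in an intron (chr12:68808923-68808942, plus strand). Introns also hold the matches of CCNG1 (chr5:163437926-163437945, plus strand), EDA2R (chrX:66638713-66638732, minus strand), GADD45A (chr1:67686775-67686794, plus strand) and ZMAT3 (chr3:179070188-179070207, minus strand). The DDB2 match is in the untranslated part of an exon (chr11:47214969-47214988, plus strand). CCNG1 and EDA2R each had a further intronic match, and ACER2, CMBL, FAS, SPATA18 and TNFRSF10B had 1 intronic match each. A match is a string of letters and not evidence of binding, and for the 24 members without one it says only that no such letters stand in this window.

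**Figure D1:**
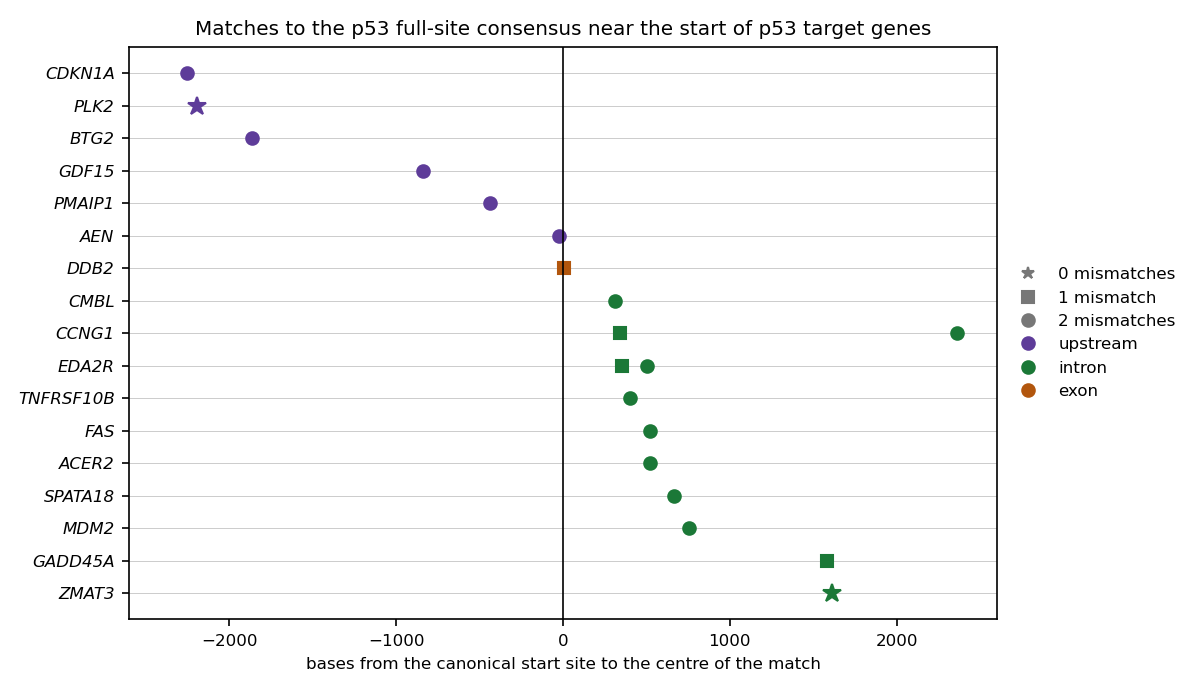
Position of each match to the p53 full-site consensus near 17 p53 target genes, on the x axis in bases from the canonical start site to the centre of the match. Shape gives the number of mismatches and colour the location, and the matches of 6 genes lie upstream, those of 10 in introns and that of DDB2 in an exon.

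With indisulam alone, 24 of the 41 members passed the threshold of an adjusted p-value of 0.05 (quasi-likelihood test of edgeR, adjusted by Benjamini-Hochberg over all tested genes). This is 58.5% of the members, beside 43.7% of all tested genes. The changes went both ways, with 11 members higher, beside 20.1% of all genes, and 13 lower, beside 23.5%. The median log2 fold change of the members was -0.04. CCNG1, ABHD4, BTG2, TP53INP1, EDA2R and PLK2 rose, and XPC, DDB2, FDXR, PLXNB2, PMAIP1 and FBXO22 fell. Not all of the 24 calls held when 1 library was left out. Without untreated replicate 1, fewer members and fewer of all tested genes were called. Such a fit, with 1 untreated library, cannot decide whether the excess over all genes holds. In RNA from whole cultures, a change in the number of cells that express a gene and a change in RNA per cell cannot be told apart.

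With SPHINX31 alone, 12 members were called, 29.3% of the members beside 8.61% of all tested genes. Here 10 were higher, beside 4.94% of all genes, and 2 lower (ZMAT3 and KITLG), beside 3.67%. GDF15 and GADD45A rose most, followed by ABHD4, BBC3, CDKN1A and EDA2R, whereas the median over the members was 0.05 on the log2 scale. When libraries were scaled by total counts alone, 12 members were higher and 0 lower. All tested genes moved the same way under this scaling, with 1341 higher and 515 lower, against 921 and 685 in the main fit. Not all of the 12 calls held when 1 library was left out. Without either untreated library or SPHINX31 replicate 1, fewer members and fewer of all tested genes were called. Such fits, with 1 library in a group, cannot decide whether the excess over all genes holds.

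In the combination, 28 members differed from untreated cells, 68.3% of the members beside 50% of all tested genes. Of these, 17 were higher, beside 23.8% of all genes, and 11 lower, beside 26.3%, with a median log2 fold change of 0.15. GDF15, ABHD4 and CCNG1 were each more than 2 times as high as in untreated cells (2.23-fold, 2.09-fold and 2.08-fold), and XPC had the lowest ratio (0.597). Not all of the 28 calls held when 1 library was left out. Without either untreated library or either combination library, fewer of all tested genes were called than in the main fit. Such fits, with 1 library in a group, cannot decide whether the excess over all genes holds.

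**Figure D2:**
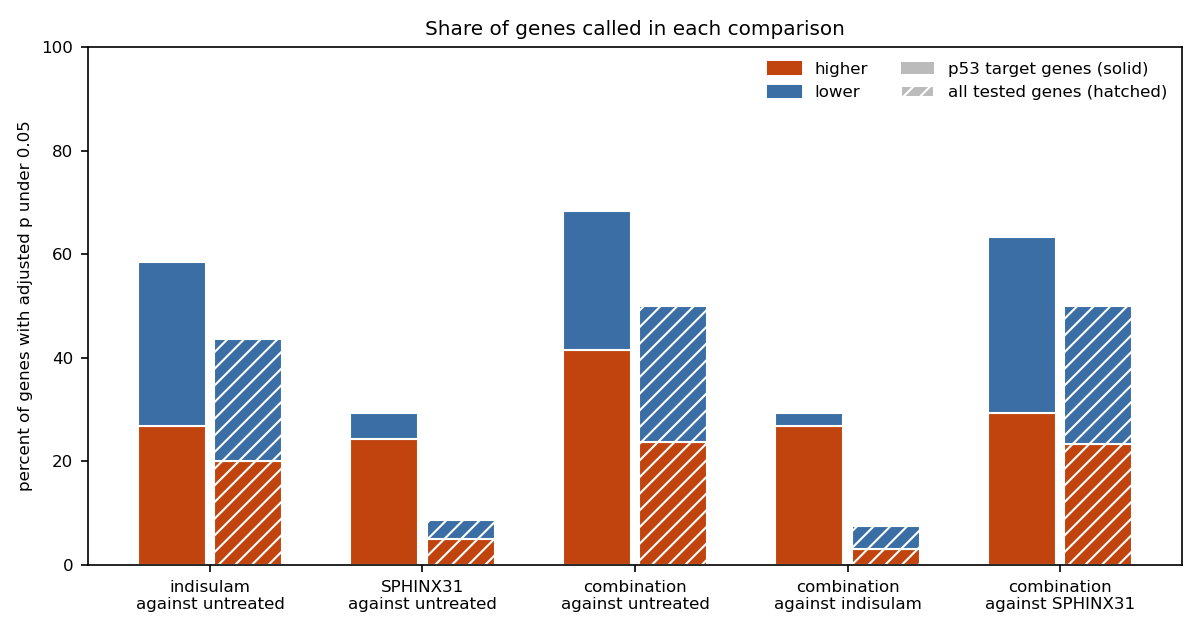
Percent of genes with an adjusted p-value under 0.05 in each comparison, for the 41 p53 target genes (solid bars) and for all 18661 tested genes (hatched bars), divided into higher and lower. With SPHINX31 and for the combination against indisulam, 29.3% of the members were called beside 8.61% and 7.50% of all genes.

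The members were then grouped by their calls across the 3 treatments. Higher in all 3 treatments were 4 members, CCNG1, EDA2R, AEN and ABHD4. Higher with indisulam and in the combination, without a call in SPHINX31, were 7 members (MDM2, BTG2, PLK2, TP53INP1, TRIAP1, CMBL and SUSD6). CDKN1A, BBC3 and GDF15 were called higher with SPHINX31 and in the combination and not with indisulam. GADD45A, PMAIP1 and TNFRSF10B were lower with indisulam, higher with SPHINX31 and not called in the combination, where PMAIP1 was called lower without combination replicate 2 (-0.31, adjusted p = 0.00416) and after a GC correction (-0.17, adjusted p = 0.0331). Lower with indisulam and in the combination were 8 members (FBXO22, PLK3, TNFRSF10A, DDB2, XPC, TIGAR, FDXR and PLXNB2). A call in 1 treatment and none in another does not show that the treatments differ, and the 3 comparisons share the untreated libraries. The share of all tested genes with each of these patterns was not counted. Large shares of all tested genes were called with indisulam and in the combination, as given above for each comparison. The pattern counts therefore describe the members only and do not show an excess over other genes.

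**Figure D3:**
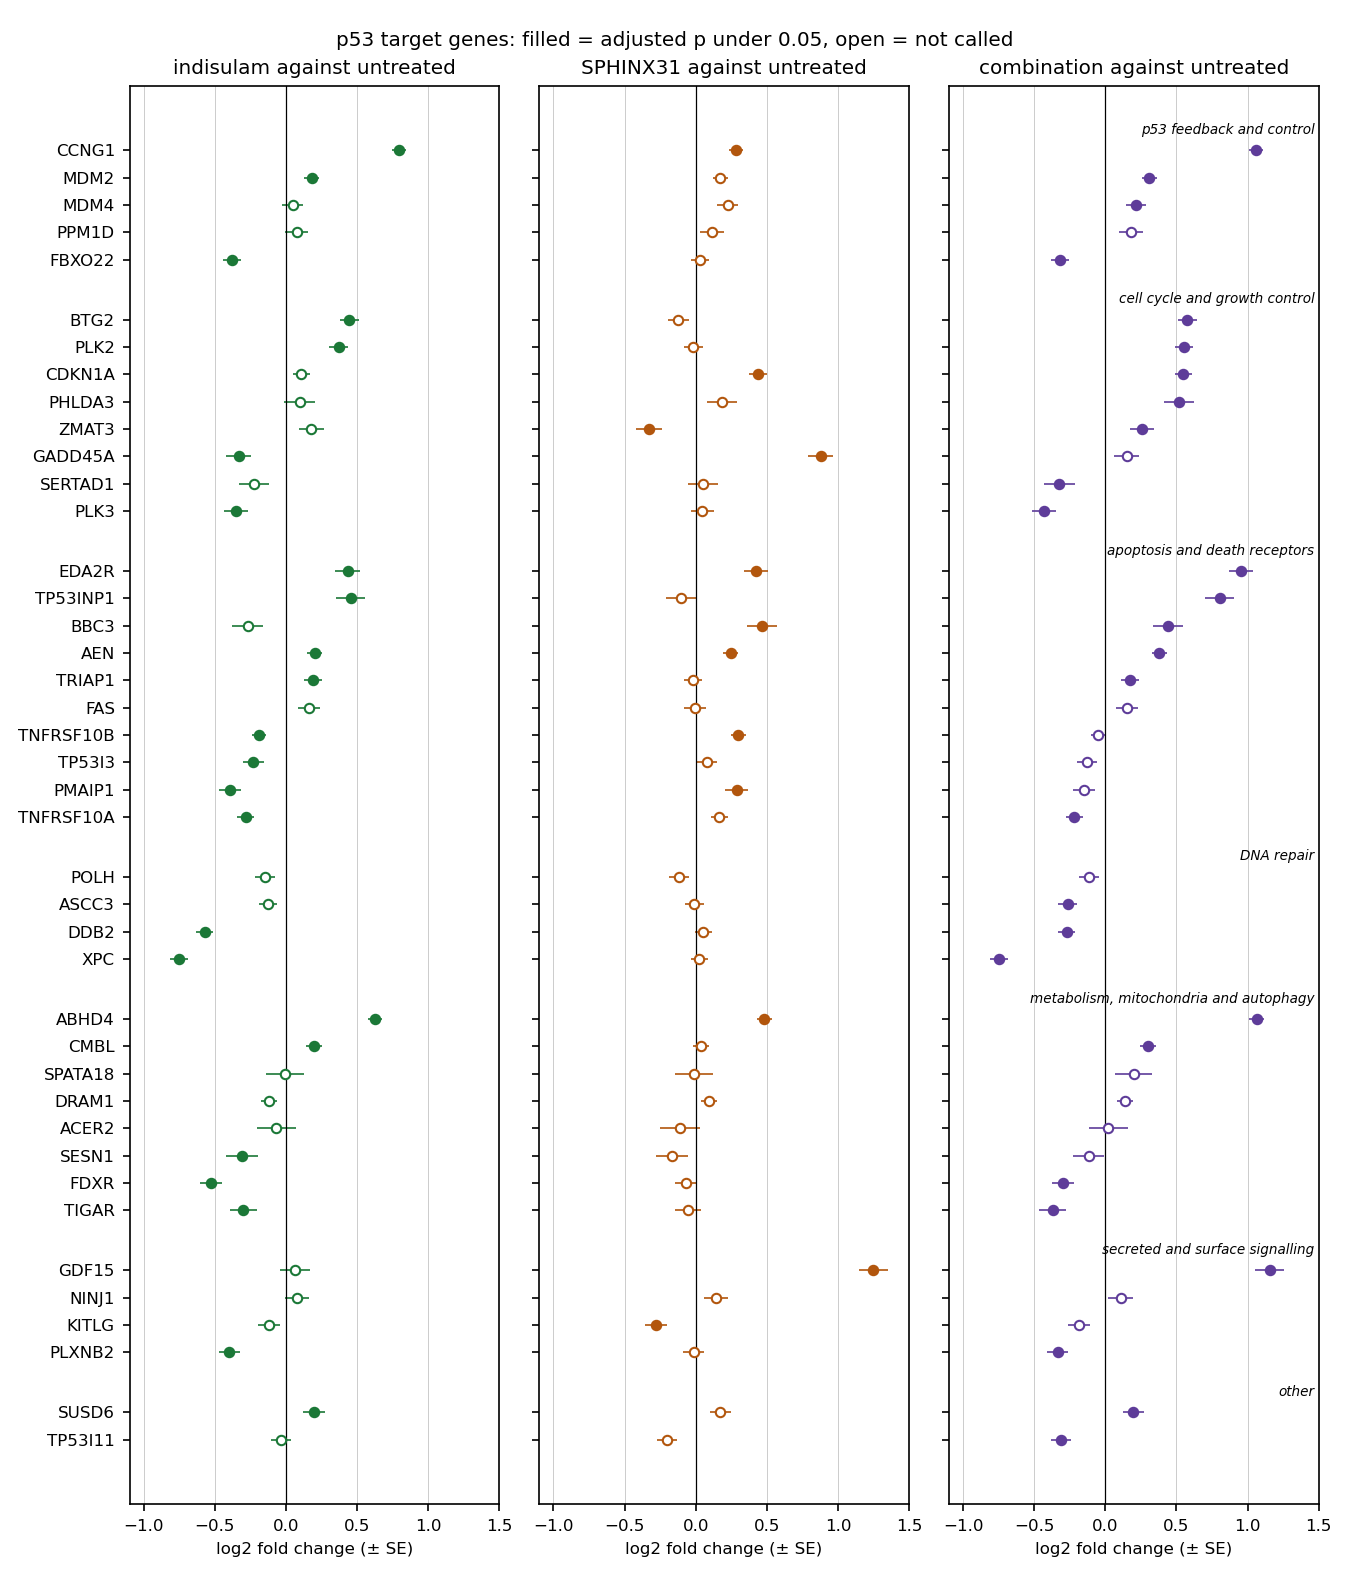
Log2 fold change against untreated cells (x axis, points, with bars of 1 standard error) of the 41 p53 target genes, grouped by role, in indisulam, SPHINX31 and the combination. Filled points have an adjusted p-value under 0.05, and with SPHINX31 the filled points are GDF15 and GADD45A at 1.25 and 0.88 and 10 others between -0.33 and 0.48.

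The first role is the feedback on p53 itself. CCNG1, which encodes cyclin G1, a partner of MDM2 and of the phosphatase PP2A, was the most abundant member per length (45.5 CPM per kb of exon in untreated cells) and changed most within this role. Its level was 141 and 141 CPM in the untreated libraries, 243 and 246 with indisulam, 166 and 178 with SPHINX31 and 291 and 296 in the combination. No 2 groups overlapped. The log2 fold changes were 0.80 with indisulam (SE 0.0492, adjusted p = 5.79e-08), 0.28 with SPHINX31 (adjusted p = 0.00325) and 1.06 in the combination (adjusted p = 2.93e-09).

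MDM2, the ubiquitin ligase that targets p53, moved little. Its libraries had 138 and 144 CPM untreated, 159 and 160 with indisulam, 159 and 160 with SPHINX31 and 168 and 181 in the combination, so that all treated libraries were above both untreated ones. The log2 fold change was 0.18 with indisulam (SE 0.0508, adjusted p = 0.0116), 0.17 with SPHINX31 (adjusted p = 0.0506, not called) and 0.31 in the combination (adjusted p = 0.00021). Without untreated replicate 1, the call of MDM2 with indisulam was lost (log2 fold change 0.15). With all 8 libraries, its difference with SPHINX31 was called by DESeq2 (adjusted p = 0.0424). It was also called in edgeR with libraries scaled by total counts alone (adjusted p = 0.0199). MDM4, which binds p53 and blocks its activity, had 36.6 and 37.5 CPM untreated, 40.2 and 36.4 with indisulam, 46.3 and 40.3 with SPHINX31 and 44.1 and 42.0 in the combination. Its log2 fold change of 0.22 in the combination was called (adjusted p = 0.0239), although not without untreated replicate 1 (0.118), untreated replicate 2 (0.0691) or combination replicate 1 (0.121), all given as adjusted p. FBXO22, part of a ubiquitin ligase that acts on methylated p53, went down from 74.8 and 81.1 CPM to 62.4 and 57.4 with indisulam and to 64.1 and 60.9 in the combination, and was at 76.5 and 82.3 with SPHINX31. Both treatments with indisulam lay below the others, with log2 fold changes of -0.38 and -0.32 (adjusted p = 0.00033 and 0.000936, edgeR). PPM1D, the phosphatase WIP1, was not called in any treatment (log2 fold changes from 0.07 to 0.18).

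**Figure D4:**
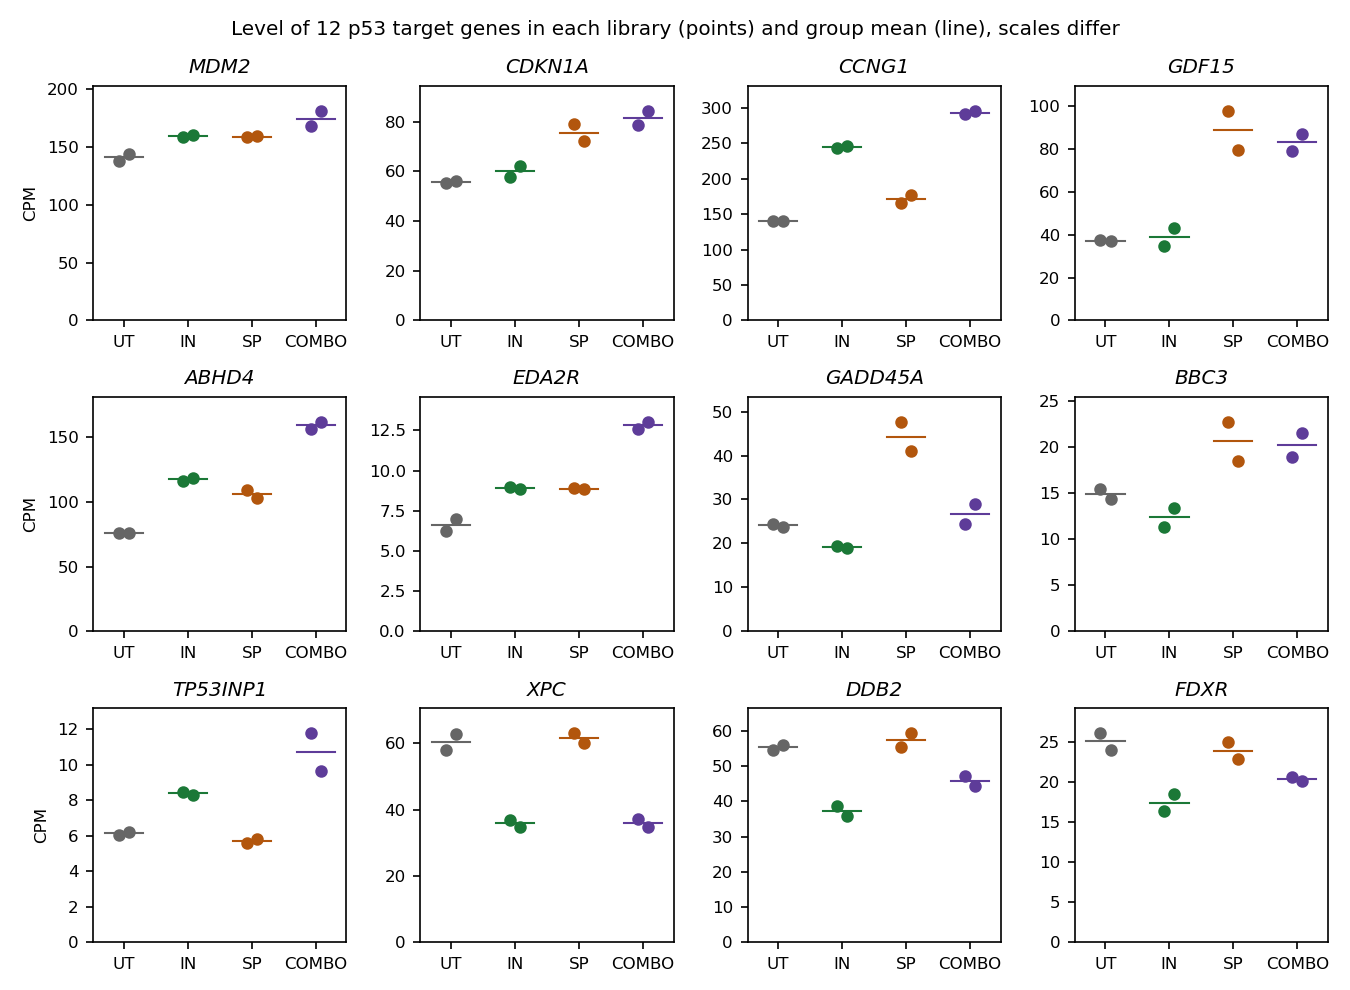
Level of 12 p53 target genes in CPM (y axis, from 0, scaled separately in each panel) in each of the 2 libraries of untreated (UT), indisulam (IN), SPHINX31 (SP) and combination (COMBO) cells, with a line at the group mean. CDKN1A, GDF15 and BBC3 are higher in the groups with SPHINX31, and XPC, DDB2 and FDXR are lower in the groups with indisulam.

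Among the 8 members that act on the cell cycle and growth, CDKN1A, the inhibitor of cyclin-dependent kinases, was higher in the groups with SPHINX31. It was at 55.3 and 56.0 CPM untreated and 57.8 and 62.3 with indisulam, but at 78.9 and 72.1 with SPHINX31 and 78.6 and 84.2 in the combination. The groups with SPHINX31 did not overlap those without it. Its log2 fold changes were 0.11 with indisulam (SE 0.0623, adjusted p = 0.176), 0.44 with SPHINX31 (adjusted p = 0.000819) and 0.55 in the combination (adjusted p = 7.77e-06), and the last 2 held in every fit that left out 1 library. GADD45A, which encodes a stress protein that binds p21 and PCNA, had 24.4 and 23.7 CPM untreated, 19.4 and 18.9 with indisulam, 47.6 and 40.97 with SPHINX31 and 24.5 and 29.0 in the combination. The SPHINX31 libraries stood above all others and the indisulam libraries below all others. Its log2 fold change was 0.88 with SPHINX31 (adjusted p = 5.8e-05) and -0.33 with indisulam (adjusted p = 0.00845, and 0.0507 without untreated replicate 1). In the combination it was 0.15 and not called, but without combination replicate 1 it was 0.28 and called (adjusted p = 0.0332).

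BTG2 and PLK2 were higher in the groups with indisulam. BTG2, an antiproliferative protein that promotes mRNA decay, was at 12.6 and 12.3 CPM untreated, 16.6 and 17.3 with indisulam, 11.5 and 11.4 with SPHINX31 and 18.8 and 18.3 in the combination. PLK2, a polo-like kinase, was at 51.6 and 48.0, 65.4 and 63.2, 45.9 and 52.5, and 74.3 and 71.7 CPM in the same order. For both genes the groups with indisulam lay above those without, with log2 fold changes in the combination of 0.58 for BTG2 and 0.55 for PLK2 (adjusted p = 1.27e-05 and 1.4e-05). PLK3, a related kinase, went the other way, from 9.79 and 9.69 CPM to 7.33 and 7.99 with indisulam and 7.24 and 7.20 in the combination, against 10.2 and 9.91 with SPHINX31. Its log2 fold changes were -0.35 and -0.43 with indisulam and in the combination (adjusted p = 0.00415 and 0.000744), and the first was not called without indisulam replicate 1 (adjusted p = 0.0534).

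ZMAT3, an RNA-binding protein that regulates splicing, was the only member called lower with SPHINX31 and higher in the combination. It had 10.3 and 10.1 CPM untreated, 11.8 and 11.2 with indisulam, 7.42 and 8.79 with SPHINX31 and 12.3 and 12.04 in the combination. The adjusted p-values were 0.0406 for the log2 fold change of -0.33 and 0.0244 for that of 0.26. Both calls of ZMAT3 were lost when either untreated library was left out (adjusted p between 0.0843 and 0.201), the first also without SPHINX31 replicate 1 (0.248) or either combination library (0.055 and 0.056), and the second also without combination replicate 1 (0.0871) or 2 (0.0638). PHLDA3, an inhibitor of AKT, was called in the combination alone, at 24.6 and 23.7 CPM against 17.2 and 16.6 untreated, 15.9 and 20.2 with indisulam and 20.9 and 17.4 with SPHINX31 (log2 fold change 0.52, adjusted p = 0.000999). SERTAD1, a regulator of CDK4, was at 6.88 and 7.48 CPM untreated, 5.81 and 6.496 with indisulam, 8.06 and 6.85 with SPHINX31 and 5.95 and 5.52 in the combination. Its fall by 0.32 on the log2 scale (adjusted p = 0.0229) was not called without untreated replicate 2 (0.150) or combination replicate 2 (0.131).

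The 10 members of apoptosis and death receptor signalling were divided. With indisulam 4 rose and 4 fell, with SPHINX31 5 rose and 0 fell, and in the combination 5 rose and 1 fell. The shares called were 80%, 50% and 60% of the 10, beside 43.7%, 8.61% and 50% of all tested genes. EDA2R, a receptor of the tumour necrosis factor family, had 6.26 and 6.98 CPM untreated, 8.99 and 8.87 with indisulam, 8.90 and 8.85 with SPHINX31 and 12.6 and 13.02 in the combination. The single treatments lay at the same height, between untreated cells and the combination. Its log2 fold changes were 0.43, 0.42 and 0.95 (adjusted p = 0.0012, 0.00862 and 7.89e-07), and that with SPHINX31 was 0.35 and not called without untreated replicate 1 (0.126). TP53INP1, which acts in p53-dependent death and autophagy, was at 6.04 and 6.24 CPM untreated, 8.49 and 8.32 with indisulam, 5.61 and 5.81 with SPHINX31 and 11.8 and 9.64 in the combination. Its log2 fold change was 0.45 with indisulam and 0.80 in the combination (adjusted p = 0.00317 and 2.17e-05), and the SPHINX31 libraries lay below the untreated ones without a call (-0.10).

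BBC3 and PMAIP1 encode BH3-only proteins, which set off apoptosis at mitochondria. BBC3, which encodes PUMA, had 15.5 and 14.4 CPM untreated, 11.4 and 13.4 with indisulam, 22.7 and 18.5 with SPHINX31 and 18.96 and 21.6 in the combination. Groups with SPHINX31 were above all others, with log2 fold changes of 0.47 (adjusted p = 0.015) and 0.44 (adjusted p = 0.00345). With SPHINX31 alone, BBC3 was not called without untreated replicate 1 (0.0631), untreated replicate 2 (0.121) or SPHINX31 replicate 1 (0.156), and in the combination not without combination replicate 2 (0.0527). The BBC3 value with indisulam, -0.27, missed the threshold (adjusted p = 0.0618), and passed it without indisulam replicate 2, where it was -0.38, and without either SPHINX31 library. PMAIP1, which encodes NOXA, was at 64.5 and 67.7 CPM untreated, 49.7 and 50.9 with indisulam, 78.6 and 82.8 with SPHINX31 and 53.4 and 65.9 in the combination. Indisulam and SPHINX31 libraries lay on opposite sides of the untreated ones. The PMAIP1 log2 fold change with indisulam was -0.39 (adjusted p = 0.00136), whereas that with SPHINX31, 0.29 (adjusted p = 0.0377), was lost without any 1 of the 4 libraries it compares (adjusted p from 0.0944 to 0.225).

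AEN, an exonuclease of apoptotic DNA, had 77.6 and 78.5 CPM untreated, 88.0 and 91.5 with indisulam, 96.2 and 88.9 with SPHINX31 and 100 and 103 in the combination, where it was highest. Its log2 fold changes were 0.20, 0.24 and 0.38 (adjusted p = 0.00818, 0.0128 and 5.74e-05). The AEN call with indisulam was lost without untreated replicate 1 (0.0611) or indisulam replicate 2 (0.0511), and that with SPHINX31 without either untreated library (0.120 and 0.0898) or SPHINX31 replicate 1 (0.0983). The death receptors TNFRSF10B (DR5) and TNFRSF10A (DR4), which bind TRAIL, both fell with indisulam, by 0.19 and 0.28 on the log2 scale (adjusted p = 0.00869 and 0.002). TNFRSF10B rose with SPHINX31 (0.30, adjusted p = 0.00303), and TNFRSF10A had 0.17 there (adjusted p = 0.107). In the combination TNFRSF10A fell by 0.22 (adjusted p = 0.00883), which was lost without untreated replicate 2 (0.108) or combination replicate 1 (0.0895). Without untreated replicate 1 or 2 or indisulam replicate 1, the fall of TNFRSF10B was not called (adjusted p = 0.0519, 0.055 and 0.0574). TP53I3, a quinone oxidoreductase, fell by 0.23 with indisulam (adjusted p = 0.0197), a call lost without indisulam replicate 1 (0.192) or either untreated library (0.117 and 0.0563). TRIAP1, a mitochondrial inhibitor of apoptosis, rose by 0.19 with indisulam and by 0.17 in the combination (adjusted p = 0.0284 and 0.0375). Neither TRIAP1 call held without either untreated library (adjusted p from 0.0606 to 0.209), that with indisulam was also lost without indisulam replicate 2 (0.271), and that in the combination without combination replicate 1 (0.0639) or 2 (0.161). FAS, the receptor of the FAS ligand, was not called in any treatment, with log2 fold changes from -0.01 to 0.16.

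Of the 4 DNA repair members, 0 were called higher than in untreated cells in any treatment. Of all tested genes, 20.1%, 4.94% and 23.8% were higher with indisulam, SPHINX31 and the combination. The shares of the 4 called in either direction were 50%, 0% and 75%, beside 43.7%, 8.61% and 50% of all tested genes. With 4 genes, these counts do not show a difference from other genes. XPC, which recognises DNA damage in nucleotide excision repair, was at 58.0 and 62.8 CPM untreated, 36.9 and 34.9 with indisulam, 63.0 and 60.0 with SPHINX31 and 37.3 and 34.8 in the combination. The groups with indisulam lay far below those without it and next to each other. The XPC log2 fold changes were -0.75 with indisulam (SE 0.0631, adjusted p = 8.87e-07) and -0.74 in the combination (adjusted p = 5.75e-07). DDB2, its partner in damage recognition, was at 54.5 and 56.0 CPM untreated, 38.5 and 35.8 with indisulam, 55.5 and 59.3 with SPHINX31 and 47.3 and 44.3 in the combination. The combination lay between indisulam and untreated cells, with log2 fold changes of -0.57 for indisulam and -0.27 for the combination (adjusted p = 7.84e-06 and 0.00235). ASCC3, a DNA helicase, fell in the combination by 0.26 (adjusted p = 0.00476, and 0.0694 without untreated replicate 2). POLH, the translesion polymerase eta, was not called (from -0.15 to -0.12).

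Of the 8 members in metabolism, mitochondria and autophagy, ABHD4, a lipase of N-acyl phospholipids, rose most. It had 76.2 and 76.1 CPM untreated, 116 and 119 with indisulam, 110 and 103 with SPHINX31 and 157 and 162 in the combination. Every treated library was above the untreated ones and both combination libraries above the rest. The log2 fold changes of ABHD4, 0.63, 0.48 and 1.06 (adjusted p = 6.5e-07, 9.76e-05 and 3.46e-09), held in every fit that left out 1 library. FDXR, the mitochondrial reductase that feeds electrons to ferredoxin, fell from 26.1 and 24.02 CPM to 16.3 and 18.5 with indisulam and 20.7 and 20.2 in the combination, and was at 25.0 and 22.8 with SPHINX31. Its log2 fold changes were -0.53 with indisulam (adjusted p = 0.000127) and -0.30 in the combination (adjusted p = 0.00618, and 0.0755 without untreated replicate 1). TIGAR, a phosphatase that slows glycolysis, had 6.46 and 6.89 CPM untreated, 5.61 and 5.22 with indisulam, 6.61 and 6.26 with SPHINX31 and 5.34 and 4.996 in the combination. It fell by 0.30 and 0.37 on the log2 scale in the groups with indisulam (adjusted p = 0.0224 and 0.00606). The TIGAR calls were lost without untreated replicate 2 (0.147 and 0.0594), and the first also without untreated replicate 1 (0.0505) or indisulam replicate 2 (0.143).

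CMBL, a hydrolase, rose by 0.20 with indisulam and 0.30 in the combination (adjusted p = 0.0106 and 0.000468), the first not called without either untreated library (0.0786 and 0.0571). SESN1, a leucine sensor that restrains mTORC1, fell by 0.31 with indisulam (adjusted p = 0.0397), which was lost without indisulam replicate 1 (0.198) or either untreated library (0.241 and 0.0508). DRAM1, SPATA18 and ACER2, which act in autophagy, mitochondrial quality control and ceramide breakdown, were not called against untreated cells, with log2 fold changes between -0.12 and 0.20. ACER2 and SPATA18 were the least abundant members, with standard errors of 0.138 and 0.134 against a median of 0.0741 with indisulam, so that small differences were not detectable for them.

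GDF15, a secreted stress cytokine, was the member with the largest change in any treatment. Its libraries had 37.5 and 37.0 CPM untreated, 34.8 and 43.2 with indisulam, 97.6 and 79.6 with SPHINX31 and 79.1 and 87.1 in the combination. The groups with SPHINX31 stood above all other libraries, and untreated and indisulam libraries overlapped. The log2 fold changes of GDF15 were 1.25 with SPHINX31 (SE 0.102, adjusted p = 1.15e-05), 1.16 in the combination (adjusted p = 8.09e-07) and 0.06 with indisulam (adjusted p = 0.656). PLXNB2, a semaphorin receptor, was at 222 and 203 CPM untreated, 148 and 175 with indisulam, 220 and 201 with SPHINX31 and 171 and 166 in the combination, with falls by 0.40 and 0.33 on the log2 scale in the groups with indisulam (adjusted p = 0.000736 and 0.00211). KITLG, the ligand of KIT, was lower with SPHINX31 by 0.28 (adjusted p = 0.0413), and this call was lost when any 1 of untreated replicate 1 (0.0985), untreated replicate 2 (0.247), SPHINX31 replicate 1 (0.263) or either combination library (0.0541 and 0.0559) was left out. NINJ1, an adhesion protein that ruptures the membrane of dying cells, was not called (from 0.08 to 0.14). Of the remaining members, SUSD6 had 0.20 with indisulam and 0.20 in the combination (adjusted p = 0.0474 and 0.0414), both lost without any 1 of the libraries they compare and the first also without either combination library (adjusted p from 0.0552 to 0.214). TP53I11 fell by 0.31 in the combination (adjusted p = 0.00198).

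Next, the combination was compared with each compound alone. Against indisulam, 12 members were called, 29.3% of the members beside 7.50% of all tested genes. Of these, 11 were higher, beside 3.17% of all genes, and 1 (TP53I11) was lower, beside 4.32%, and the median over the members was 0.13. GDF15 and BBC3 led with log2 fold changes of 1.10 and 0.71 (adjusted p = 9.67e-05 and 0.00174), followed by EDA2R (0.52), GADD45A (0.48), CDKN1A (0.44), ABHD4 (0.44), PHLDA3 (0.42), TP53INP1 (0.35), DDB2 (0.30), CCNG1 (0.26) and DRAM1 (0.26). The calls of GDF15, BBC3, EDA2R, CDKN1A and ABHD4 held in every fit that left out 1 library. Without combination replicate 2, the number called was 7, and CCNG1 (adjusted p = 0.0572), GADD45A (0.082), DRAM1 (0.103), PHLDA3 (0.118) and TP53I11 (0.181) were lost. The DDB2 call was lost without combination replicate 1 (0.0883) or indisulam replicate 2 (0.0712), those of PHLDA3, DRAM1 and TP53I11 also without 1 or more of combination replicate 1, indisulam replicate 1 and indisulam replicate 2 (adjusted p from 0.106 to 0.185), and that of TP53INP1, close to the threshold at an adjusted p of 0.0491, in 7 of the 8 such fits.

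Against SPHINX31, 26 members were called, 63.4% of the members beside 49.9% of all tested genes. Here 12 were higher, beside 23.4% of all genes, and 14 lower, beside 26.5%. TP53INP1, CCNG1, BTG2, ZMAT3, ABHD4 and PLK2 were higher, with log2 fold changes of 0.91, 0.77, 0.70, 0.59, 0.58 and 0.57. XPC and GADD45A were lowest at -0.77 and -0.73, followed by PLK3 (-0.48) and PMAIP1 (-0.44). GDF15, BBC3, MDM4 and CDKN1A were not called (-0.09, -0.03, -0.01 and 0.11). Not all of the 26 calls held when 1 library was left out. Without combination replicate 2, fewer members and fewer of all tested genes were called. That fit, with 1 combination library, cannot decide whether the excess over all genes holds.

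Whether the combination departed from the sum of the single effects was tested as an interaction. No member passed (0 of 41, edgeR's quasi-likelihood test), and 0% of all tested genes did. DESeq2 also called 0 members, although 32 of all genes. At an unadjusted p under 0.05 there were 8 members, beside 8.49% of all tested genes. Of them, 3 had an interaction beyond 0.35 on the log2 scale and an unadjusted p under 0.01, and had opposite signs, with TP53INP1 at 0.45 (SE 0.147), ZMAT3 at 0.41 (SE 0.126) and GADD45A at -0.39 (SE 0.123), all with adjusted p between 0.428 and 0.446. For the members with the largest rises, the sums of the single log2 fold changes were 1.08 for CCNG1, 1.11 for ABHD4, 1.31 for GDF15, 0.86 for EDA2R and 0.55 for CDKN1A, and the interactions were -0.02, -0.04, -0.15, 0.10 and 0.00 (SE 0.0691, 0.0714, 0.143, 0.119 and 0.0874). Departures of the size of these standard errors were not detectable, and larger ones also did not pass, such as TP53INP1 at 0.45 with an SE of 0.147. The absence of a call therefore does not show that the single effects add.

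The matches to the p53 full site, under the relaxed rule, were then set beside the calls, as a description without a test. Of the 17 members with a match, 8 were higher and 1 lower with SPHINX31, 10 higher and 1 lower in the combination and 7 higher and 4 lower with indisulam. Of the 24 without a match, 2 were higher and 1 lower with SPHINX31, 7 higher and 10 lower in the combination and 4 higher and 9 lower with indisulam. Of all tested genes, 4.94% were higher and 3.67% lower with SPHINX31, 23.8% and 26.3% in the combination and 20.1% and 23.5% with indisulam. The median log2 fold changes in the combination were 0.30 with a match and -0.12 without. DDB2 was the only member with a match that was lower in the combination, and ABHD4, without a match, was among the 3 largest rises.

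Further lists were counted for context, named by function. Of 29 other p53 target genes, 7 rose and 8 fell with indisulam, 3 rose and 2 fell with SPHINX31, and 11 rose and 7 fell in the combination. These are 51.7%, 17.2% and 62.1% of the list, beside 43.7%, 8.61% and 50% of all tested genes. With SPHINX31 only 2 were called without either untreated library or SPHINX31 replicate 1, and in the combination 11 without untreated replicate 1. BAX, the pore-forming effector of apoptosis, rose by 0.43 with indisulam and 0.76 in the combination, and PRKAB1, a subunit of AMP-activated kinase, by 0.52 and 0.71. TM7SF3 and PTP4A1 fell in the combination by 0.65 and 0.71. With SPHINX31, TNFRSF10D, a decoy receptor of TRAIL, fell by 0.75. Of 27 upstream regulators of p53, 4 rose and 8 fell with indisulam, 2 rose and 1 fell with SPHINX31, and 4 rose and 9 fell in the combination, or 44.4%, 11.1% and 48.1%, near the shares of all genes. Without untreated replicate 1, 0 of the regulators were called with SPHINX31 and 8 in the combination, and without untreated replicate 2 or indisulam replicate 2, 7 with indisulam. PPP1R13L, which encodes the p53 inhibitor iASPP, was at 3.83 and 3.62 CPM untreated and 1.03 and 1.14 with indisulam, and fell by 1.78 on the log2 scale (SE 0.165, adjusted p = 2.05e-06), and the p53 relatives TP73 and TP63 fell by 0.84 and 0.55. In the combination PPP1R13L was at -1.29, TP63 at -0.63 and ATR, a kinase of the damage response, at -0.51.

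The cell cycle genes that p21 is known to repress through the DREAM complex were counted next. Of 30, 10 rose and 10 fell with indisulam, 0 rose and 11 fell with SPHINX31, and 2 rose and 17 fell in the combination. The shares called were 66.7%, 36.7% and 63.3%, beside 43.7%, 8.61% and 50% of all tested genes. With SPHINX31, 19 of the 30 did not pass, and 10 of the 11 calls were lost when 1 library was left out, KIF20A being the exception. The number called there was 2 without untreated replicate 1, 1 without untreated replicate 2 and 1 without SPHINX31 replicate 1. With indisulam it was 13 without either untreated library. Against indisulam alone, 0 rose and 21 fell in the combination, beside 4.32% of all genes lower, and 9 of these calls held in every fit that left out 1 library, with 10 called without combination replicate 1 and 14 without combination replicate 2. TOP2A, topoisomerase II, had 629 and 685 CPM untreated, 355 and 330 with indisulam, 534 and 613 with SPHINX31 and 239 and 238 in the combination (log2 fold change -1.46, adjusted p = 2.62e-09). ECT2, CDC25C and RRM2 followed in the combination at -1.24, -1.11 and -1.01, and KIF20A was lowest with SPHINX31 at -0.40. Of 10 stress factors and ATF4 targets, 0 rose and 7 fell with indisulam, 6 rose and 0 fell with SPHINX31, and 3 rose and 2 fell in the combination. These are 70.0%, 60.0% and 50% of the list, beside 43.7%, 8.61% and 50% of all tested genes. In the combination the share was thus that of all genes. Without untreated replicate 2 or SPHINX31 replicate 1, 4 were called with SPHINX31, and without untreated replicate 1, 3 in the combination. With SPHINX31, PPP1R15A rose by 1.32, DDIT3 by 0.99, ATF3 by 0.84 and TRIB3 by 0.64, and with indisulam VLDLR, TRIB3, DDIT3 and DDIT4 fell by 1.32, 0.79, 0.71 and 0.44. The members lower with indisulam and higher with SPHINX31 (GADD45A, PMAIP1 and TNFRSF10B) had the same signs as DDIT3 and TRIB3, whose part in these values was not tested. SESN2 stands in both the list of other p53 targets and that of ATF4 targets.

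**Figure D5:**
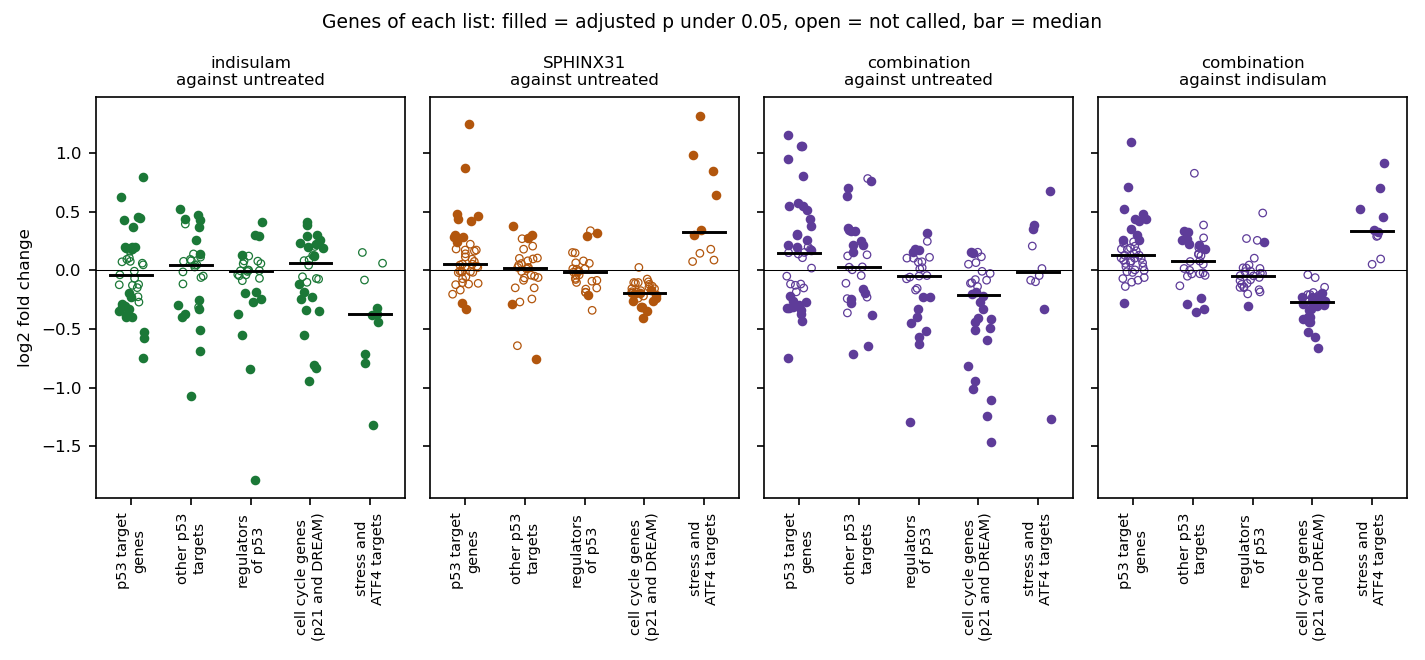
Log2 fold changes (y axis) of the p53 target genes and of 4 further lists, 1 point per gene, in 4 comparisons. Filled points have an adjusted p-value under 0.05, black bars are medians, and the points are spread sideways at random. For the combination against indisulam, the filled points of the cell cycle list lie below 0 and those of the stress list above 0, and the p53 target genes have a median of 0.13.

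Some counts are less certain than the others. MDM2, PHLDA3, BBC3, FAS and TIGAR share exon bases with another annotated gene on the same strand, and 18 members do so with a gene on the other strand. The libraries were made with a strand-specific kit, but the strand setting of the counting is not given in the sources used here.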

How the data were processed

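RNA of A549 cells (8 libraries, technical duplicates of 4 groups) was sequenced from strand-specific polyA libraries. The authors deposited raw counts per Ensembl gene from HTSeq after alignment with HISAT2 2.2.1 (submitters' processing notes); the annotation release and strand setting of the counting are not given in the sources used here. Rows that name no gene (14.0% to 17.0% of each library) were left out. No other deposited column of values was unused (0). Counts were tested with edgeR 4.0.16 in R 4.3.3 (filterByExpr, TMM, 1 fit over 8 libraries with 4 residual degrees of freedom, quasi-likelihood F-test, Benjamini-Hochberg adjustment over 18661 genes, threshold 0.05). The code was run on simulated data in which far fewer genes changed than were called here with indisulam or in the combination. That run therefore cannot check the scaling or the calls under such broad changes. CPM values use TMM library sizes. Alternatives were DESeq2 1.42.0, other scalings and filters, a GC correction, a replicate block and leaving out each library. Genes carry GENCODE annotation on GRCh38 (18596 of the tested genes). Values in every library are given for MDM2, MDM4, CDKN1A and the members with the largest called change in any treatment whose mean abundance was 1 or more in log2 CPM, up to 24 in all. The members and all lists were chosen with earlier results of these data known. The p53 site rule was relaxed after a stricter one matched few members. A withheld gene is not reported here and was left out of the lists.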

Additional observations from a re-analysis of the deposited data

How the results depend on the processing

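The p-values rest on technical duplicates, and members with few counts (ACER2, SPATA18) had the widest errors. Leaving out 1 library at a time gave 14 to 25 members called with indisulam, 6 to 13 with SPHINX31, 20 to 30 in the combination, 7 to 13 for the combination against indisulam, 17 to 24 against SPHINX31 and 0 for the interaction. Over all alternatives, values of single genes kept direction and side of the threshold in 6113 cases, lost the call in 575, gained it in 26 and changed sign in 18. Values near 0 that were not called changed sign. Scaled by total counts alone, PLK2 with SPHINX31 was 0.0184 and PLXNB2 0.0220, and after a GC correction PLXNB2 was 0.0164 without and 0.0163 with the replicate block. When 1 library was left out, the log2 fold change with indisulam ran from -0.0256 to 0.126 for MDM4, from -0.0921 to 0.213 for GDF15 and from -0.0754 to 0.261 for PHLDA3. With SPHINX31 it ran from -0.0301 to 0.0838 for XPC, from -0.119 to 0.0751 for PLK2, from -0.0801 to 0.0502 for PLXNB2, from -0.0298 to 0.0870 for FBXO22 and from -0.0686 to 0.166 for SERTAD1. In the combination PMAIP1 ran from -0.309 to 0.00380. The cause was not tested. The replicate numbers did not pair the libraries in 1 direction, since the correlations of replicate differences over 9946 genes changed sign between groups. They were 0.455 between untreated and SPHINX31, -0.569 between untreated and indisulam and -0.494 between indisulam and SPHINX31. Those with the combination ran from 0.0162 to 0.167. A block on the replicate number cannot take up a difference that changes direction between groups. With the replicate number as a block, 23 members were called with indisulam, 11 with SPHINX31 and 29 in the combination. There were 11 for the combination against indisulam, 25 against SPHINX31 and 0 for the interaction. Of all 18661 tested genes, the block gave 3610 higher and 4241 lower with indisulam and 773 and 557 with SPHINX31. In the combination they were 4288 and 4789, against indisulam 491 and 678, and against SPHINX31 4228 and 4846. The counts for fits that left out 1 library stand without the share of all genes, which also changed from fit to fit. These counts, for the members and for the other lists, therefore cannot decide whether an excess over all genes holds.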
